A study of Penicillium oxalicum with 15 samples.

Results

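Transcript of clrB (PDE_05999) was followed in mycelia of Penicillium oxalicum, a filamentous fungus that secretes enzymes degrading plant cell walls. The gene is 1 of the 9976 identifiers in the deposited expression table and was taken as that single row, across all 15 libraries. The libraries were made from 5 groups of 3, named as biological triplicates with no word on separate cultures, and p-values reflect no more than the spread among the libraries. The reference strain M12 and the strain gClrBID, labelled as overexpressing an internal mutant of ClrB, were each sampled on both carbon sources, glucose and cellulose. The creA deletion mutant, deltacreA, was sampled on cellulose. None of the 15 libraries is from the creA deletion strain on glucose. Mycelia grew in Vogel's medium throughout, first for 22 h with 2% glucose and afterwards for 4 h with either carbon source at 2% (w/v) and 30 °C. The labels state neither the promoter of the mutant gene nor the site of the mutation, nor whether the resident copy remains in gClrBID or how many transformants stand behind a strain. Fragments of a resident and an introduced copy of clrB fall on the same identifier and cannot be told apart. No marker of mycelia was available by name, so the tissue label was not checked. In bulk RNA, fewer cells that express a gene and less of its RNA per cell cannot be told apart. The comparisons share libraries (each group enters 4 of the 10 pairs), so their values are set side by side and not counted as separate evidence.

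ClrB is a zinc binuclear cluster transcription factor that activates cellulase genes, and its counterpart in Neurospora crassa is CLR-2. In cellulolytic fungi such activators are held low on glucose, where the zinc finger repressor CreA acts in carbon catabolite repression, and they are released when cellulose breakdown products reach the cell. The cellodextrin transporter CdtC and the intracellular beta-glucosidase Bgl2 lie on the path of that inducing signal, while the activators XlnR and AmyR serve xylanase and amylase genes. The deposited table carries locus tags only. The names of clrB and of the 15 genes set beside it rest on knowledge of the sequenced strain of the species and not on the files.

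Values are FPKM, fragments scaled by gene length and library total, so levels of different genes can be set side by side. Fold changes are differences of log2(FPKM + 1) from 1 limma fit over all 15 libraries and 8765 genes, and a gene was called at a Benjamini-Hochberg adjusted p under 0.05. The fragments behind each value were worked back from the table. Recovered totals were 10129670 to 18361197 fragments per library. They were scaled to nearly equal the fragments summed over genes, so the number of fragments outside genes is not known. Of these totals clrB made up 355 to 429 fragments in M12 on glucose and 2004 to 14624 in the other groups. Given these totals, the spacing of the clrB values gave a counted length of 2343 bases. Lengths were searched only among multiples of 3, so that this is a whole number of codons (781) was set by the search. This length scales clrB in every library, and whether the introduced copy in gClrBID shares it was not tested. Levels of clrB in gClrBID, and ratios to them, carry that limit.

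In the reference strain on glucose clrB was a lowly expressed gene. It stood at 10.4, 9.75 and 9.996 FPKM in the 3 libraries, a mean of 10.1 ± 0.345 FPKM (SD, n = 3). This placed it at the 30.9th to 32.2nd percentile of the genes detected in each library. The spread between these libraries, a coefficient of variation of 3.43%, was below the counting error of about 5.03% per library.

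On cellulose M12 held clrB at 160.0, 148 and 149.7 FPKM, and every cellulose library lay above every glucose library. The mean of 153 ± 6.43 FPKM (SD, n = 3) was 15.2 times that on glucose, and clrB moved to the 87.9th to 88.8th percentile. The log2 fold change was 3.80 ± 0.11 (SE, adjusted p = 1.5e-14). A higher level was called for 41.3% of all tested genes in this comparison, so a call alone sets clrB little apart. Its size does more, since 4.43% of the tested genes changed by more in either direction.

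The highest level of the series was reached in gClrBID on glucose. The 3 libraries stood at 465, 488 and 456 FPKM, all above every other library, with a mean of 469 ± 16.4 FPKM (SD, n = 3) at the 95.9th to 96.0th percentile. Against M12 on the same sugar this was a log2 fold change of 5.41 ± 0.11 (SE, adjusted p = 6.3e-16), or 46.7 times on the linear scale, in the gene that the label says is overexpressed. Of all tested genes 17.0% were called higher, and 39 had a larger positive fold change than clrB. The median of all genes was -0.26 in this comparison, and 5.67 separated clrB from it. Compared with M12 on cellulose the same libraries held 3.08 times as much clrB, a log2 difference of 1.62 ± 0.11 (SE, adjusted p = 6.9e-10), where 34.6% of genes were called higher.

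Transfer to cellulose was accompanied by opposite differences in M12 and gClrBID. In gClrBID on cellulose clrB stood at 56.0, 76.2 and 88.8 FPKM, a mean of 73.7 ± 16.5 FPKM (SD, n = 3), and all 3 libraries lay far below those of the strain on glucose. The log2 fold change from glucose to cellulose was -2.68 ± 0.11 (SE, adjusted p = 1.1e-12), which left 15.7% of the glucose level. Lower calls made up 34.3% of the genes tested in this comparison, and 100 genes had a lower fold change than clrB. The difference between the carbon responses of the strains, tested as an interaction, was -6.48 ± 0.16 (SE, adjusted p = 1.7e-14). A negative interaction was called for 20.1% of genes and a positive one for 48.0%, and 8 genes had a more negative value than clrB. The interaction is the strain difference on cellulose, -1.06, minus that on glucose, 5.41, and most of it lies in the glucose libraries.

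On cellulose the overexpression strain held less clrB than the reference. Its mean was 48.3% of that of M12, its highest library (88.8 FPKM) lay below the lowest of M12 (148 FPKM), and the log2 fold change was -1.06 ± 0.11 (SE, adjusted p = 6.6e-07). Of the tested genes 32.1% were called lower, and 8.97% changed by more in either direction. Leaving out 1 library at a time gave -1.21 to -0.88, and a limma fit of these groups alone gave an adjusted p of 0.00018.

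The creA deletion strain stood between them on cellulose, at 108.7, 101 and 113 FPKM, a mean of 107 ± 5.87 FPKM (SD, n = 3). Every library of it lay below every M12 library and above every gClrBID library on cellulose. The log2 fold change against M12 was -0.50 ± 0.11 (SE, adjusted p = 0.00068), but 54.2% of all genes were called lower here and the median gene stood at -0.28. Rescaling by median of ratios took clrB to -0.18 (adjusted p = 0.134, and 2.5e-05 to 0.134 over all alternatives), so that the call was lost, and the distance of clrB from the median gene was -0.22 before rescaling. Against the creA deletion strain, gClrBID on cellulose was lower by -0.56 ± 0.11 (SE, adjusted p = 0.00029), with 19.8% of genes called lower and the median gene at 0.21. Median-of-ratios scaling made that difference larger, at -0.82.

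**Figure D1:**
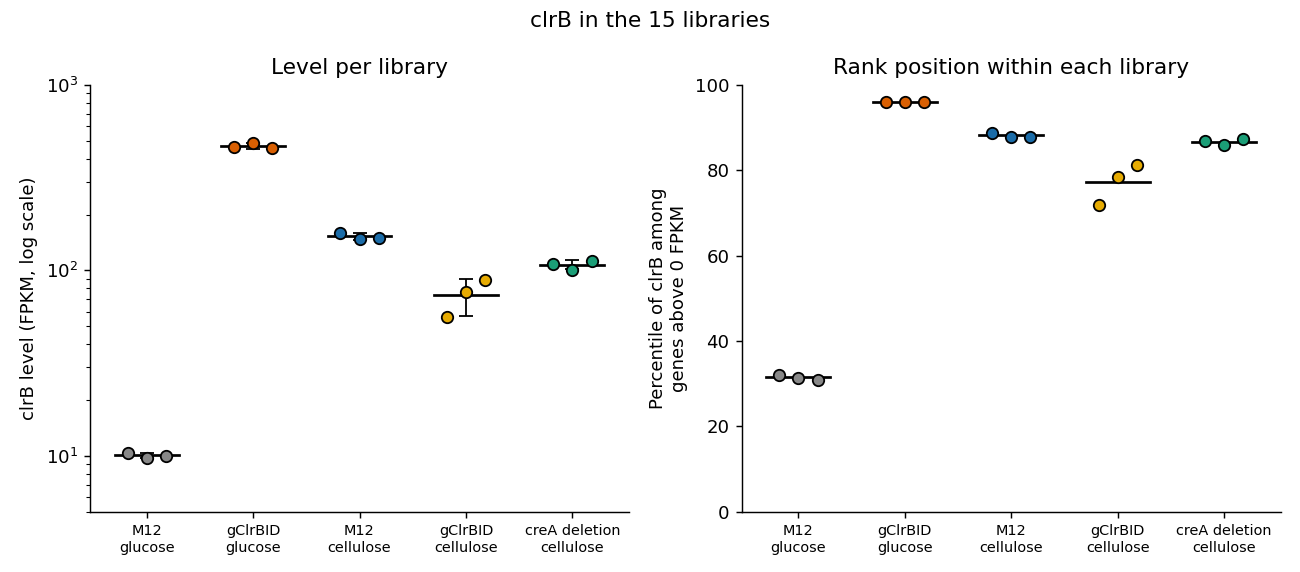
Left, clrB in FPKM on a log axis for each of the 15 libraries, with points for libraries, horizontal lines for group means and bars for the SD (n = 3). Right, the percentile of clrB among the genes above 0 FPKM in the same library. The 5 groups do not overlap in level, and the 3 gClrBID libraries on cellulose are the most scattered.

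From highest to lowest, the levels ran from gClrBID on glucose through M12, the creA deletion strain and gClrBID on cellulose to M12 on glucose. The remaining pairs were gClrBID on glucose against the creA deletion (log2 2.12 ± 0.11, SE), with 43.5% of genes higher, and against M12 on glucose gClrBID on cellulose (2.73 ± 0.11), with 38.8% higher, and the creA deletion on cellulose (3.29 ± 0.11), with 30.6% higher. Each was called by limma, with an adjusted p of 2.4e-11 or less, although strain and carbon source both differ in these pairs. The only neighbours in the order whose difference was lost under another scaling were M12 and the creA deletion strain on cellulose.

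Other regulators of carbon use did not share the profile of clrB across the groups. creA stood at 71.3 ± 2.37 FPKM in M12 on glucose, 218 ± 5.31 in gClrBID on glucose, 434 ± 33.9 in M12 on cellulose and 306 ± 26.3 in gClrBID on cellulose (SD, n = 3 each), and at 0.1048, 0.0542 and 0 FPKM in the deletion strain. It was therefore highest in M12 on cellulose, not in gClrBID on glucose. xlnR stood at 12.8 ± 0.237 and 17.0 ± 0.409 FPKM on glucose in M12 and gClrBID, and at 42.2 ± 0.929, 53.3 ± 0.979 and 42.4 ± 1.38 FPKM on cellulose in M12, gClrBID and the creA deletion (SD, n = 3 each). amyR was lowest in gClrBID on glucose, at 0.882 ± 0.102 FPKM against 17.0 ± 0.784 in M12 (SD, n = 3 each), where clrB was highest. brlA, an activator of conidiation and here the marker of another developmental state, stood at 2.51 ± 0.564 and 2.64 ± 0.652 FPKM on glucose in M12 and gClrBID, and at 42.3 ± 7.51, 62.3 ± 3.54 and 317 ± 40.5 FPKM on cellulose in M12, gClrBID and the creA deletion (SD, n = 3 each). The part of this brlA difference in the clrB level of the creA deletion strain was not tested.

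**Figure D2:**
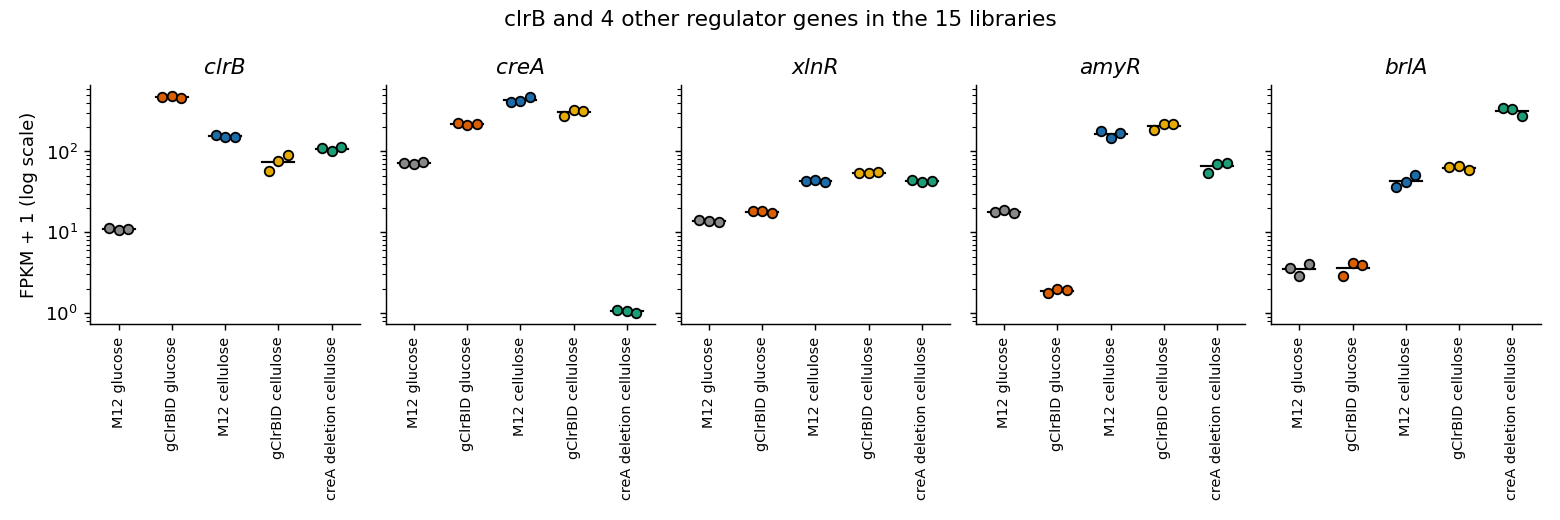
FPKM + 1 on a log axis for clrB and the regulator genes creA, xlnR, amyR and brlA, with 1 point per library in 5 groups and lines at group means. clrB alone of the 5 has its highest group mean in gClrBID on glucose, while amyR has its lowest there.

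Set against creA within each library, clrB was the less abundant transcript in 3 of the 4 groups that carry creA. The ratio of clrB to creA was 0.141 ± 0.00443 in M12 on glucose, 0.353 ± 0.0381 in M12 on cellulose and 0.240 ± 0.0420 in gClrBID on cellulose (SD, n = 3 each). In gClrBID on glucose it was 2.16 ± 0.113, so that clrB there exceeded creA. No 2 of these 4 groups overlapped. A ratio within a library does not depend on how libraries are scaled. With 3 libraries against 3 the smallest two-sided p of an exact permutation test is 0.1, so ratios are given as a description.

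The ratio of clrB to xlnR was 0.787 ± 0.0204 in M12 on glucose and 27.6 ± 0.741 in gClrBID on glucose (SD, n = 3 each). On cellulose it was 3.62 ± 0.192 in M12, 2.53 ± 0.1004 in the creA deletion and 1.38 ± 0.288 in gClrBID (SD, n = 3 each), and no 2 groups overlapped. The order of the groups in this ratio is that of clrB itself.

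A set of 15 genes was then placed beside the activator. It holds the 4 regulators above, 5 cellulase genes, 2 beta-glucosidase genes, a xylanase gene, 2 amylolytic genes and the transporter gene cdtC. They are called pathway genes below for short. Among them brlA marks another developmental state, and AmyR and XlnR serve amylase and xylanase genes. Counts over the 15 are therefore not counts of ClrB targets. The list of 15 was chosen with earlier results of these data known. From glucose to cellulose in M12 all 15 were called higher, with a median log2 fold change of 4.63 against -0.02 for all tested genes, and 41.3% of all genes were called higher. clrB, at 3.80, rose by less than each of the 5 cellulase genes. Of these cel6A (PDE_07124), for a cellobiohydrolase, rose by 4.83 ± 0.08 (SE), from 1.35 to 66.0 FPKM. cel61A (PDE_05633), for a lytic polysaccharide monooxygenase, was at 0.088 FPKM or less in each glucose library of M12, so its value on this scale depends on the pseudocount of 1. To a lesser degree this holds for amy13A, cel5B, cel6A, xyn10A, cel7A-2 and cdtC, at means of 0.953 to 1.98 FPKM there. The pseudocount shrinks their fold changes against M12 on glucose, and their interactions given below also depend on it.

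With gClrBID against M12 on glucose 10 of the 15 were called higher and 4 lower, where 17.0% and 54.7% of all genes were called higher and lower. Median-of-ratios scaling moved the counts of all genes from 1493 higher and 4797 lower to 2977 and 2920, and those of the 15 genes stayed at 10 and 4. The largest increase was that of cel6A, at 12.39 ± 0.08, followed by cel5B (PDE_09226), for an endoglucanase, at 11.98 ± 0.13 (SE). cel61A was among the 10 but lay near 0 in both groups, at a mean of 0.0293 FPKM in M12 and 0.523 in gClrBID. amyR, PDE_02736, amy15A and amy13A were the 4 called lower, and brlA was not called. amy13A was also near 0, at a mean of 0.953 FPKM in M12 and 0.226 in gClrBID. The call of amy15A, at -0.58, was lost with voom weights (adjusted p = 0.0885, and 7.2e-05 to 0.268 over all alternatives).

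Within gClrBID, 6 of the 15 genes were called lower on cellulose than on glucose, as clrB was, and 9 higher, where 34.3% and 49.4% of all genes were called lower and higher. The 6 were cel7A-2, cel6A, cel7B, cel5B, bgl2 and cdtC. Their changes, from -2.30 ± 0.06 for bgl2 (PDE_00579) to -0.25 ± 0.08 for cel7A-2 (PDE_07945), were each smaller than that of clrB at -2.68 ± 0.11 (SE). Rescaling to TPM ended the call of cel7A-2 (adjusted p = 0.147), in a range of 1.6e-06 to 0.147 among the alternatives. The xylanase gene xyn10A (PDE_08094) was called higher on cellulose by 1.13 ± 0.09 (SE).

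On cellulose clrB and most of the pathway genes differed in opposite directions between gClrBID and M12. 13 of the 15 genes were called higher and 1, creA, lower, while clrB was lower by 1.06, and 27.3% and 32.1% of all genes were called higher and lower. All 5 cellulase genes were among the 13, with a median log2 fold change of 3.06. The call of amyR was lost without M12 cellulose replicate 2 (adjusted p = 0.0645), in a range of 0.00106 to 0.0645 among the alternatives.

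In the creA deletion strain against M12 on cellulose 11 of the 15 were called higher and 3 lower, creA itself among the 3, with 21.2% and 54.2% of all genes called higher and lower, or 3200 and 3087 genes after median-of-ratios scaling in place of 1860 and 4751. The 5 cellulase genes were called higher with a median of 5.28, while clrB was at -0.50, a call lost at -0.18 after median-of-ratios scaling. xlnR was at 0.01 ± 0.05 (SE, not called) and was called higher by 0.32 after median-of-ratios scaling, which also turned PDE_02736, a beta-glucosidase gene, from -0.30 to 0.02.

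**Figure D3:**
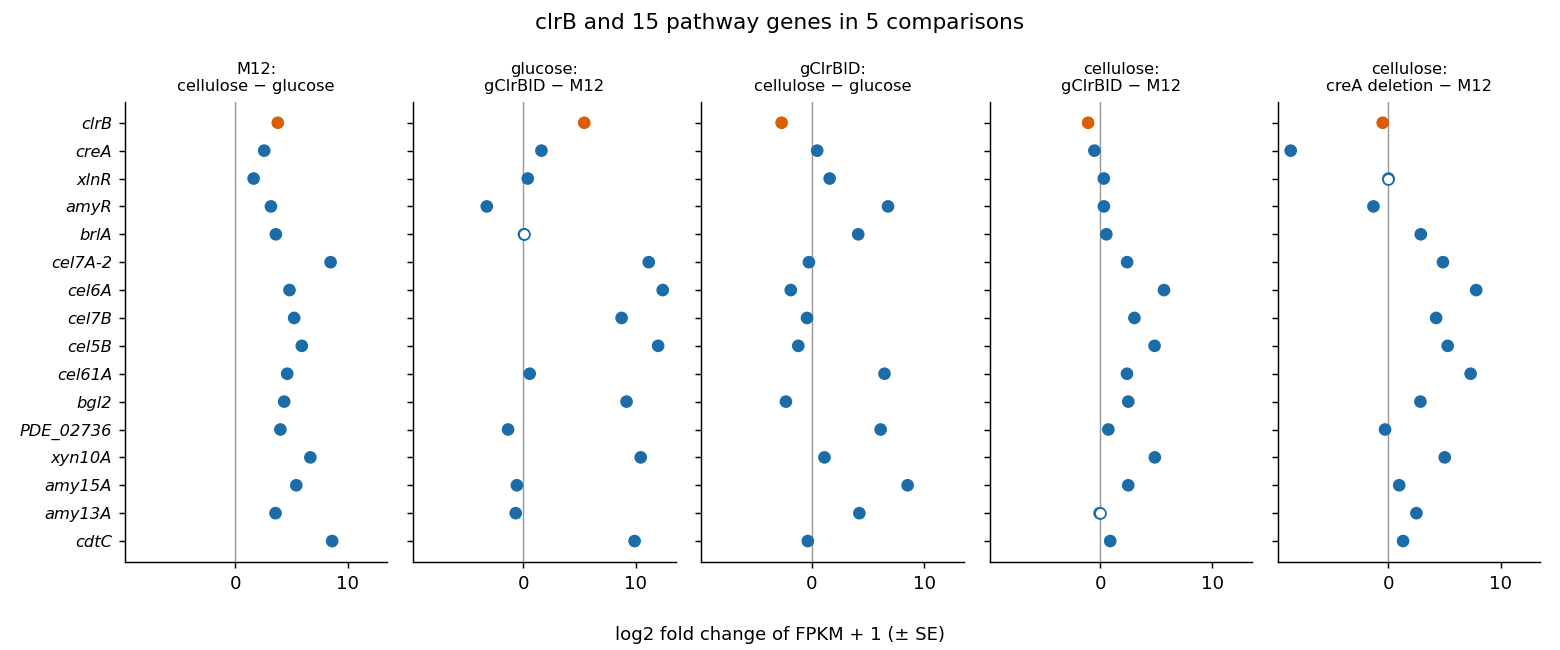
log2 fold changes of FPKM + 1 with SE (often smaller than the points) for clrB in orange and 15 pathway genes in blue, in 5 comparisons. Open points were not called. In the last pair of panels clrB lies left of 0 while the 5 cellulase genes lie right of it, and the call of clrB in the creA deletion is lost at -0.18 after median-of-ratios scaling.

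The amount of cellulase transcript per clrB transcript differed widely between groups. The FPKM of the 5 cellulase genes summed to 9.03 ± 0.448 in M12 on glucose, 1479 ± 72.7 in M12 on cellulose, 14842 ± 358 in gClrBID on cellulose, 30682 ± 1394 in gClrBID on glucose and 58652 ± 1657 in the creA deletion on cellulose (SD, n = 3 each). Per FPKM of clrB this was 0.898 ± 0.0221 in M12 on glucose and 9.71 ± 0.776 in M12 on cellulose. In gClrBID it was 65.5 ± 4.76 on glucose and 209 ± 53.2 on cellulose, and in the creA deletion 546 ± 15.2 (SD, n = 3 each). No 2 of the 5 groups overlapped in this ratio, and their order is not that of clrB. The mix of genes in the sum also differed. Its largest member was cel7B in M12 on glucose (mean 4.39 FPKM) and cel6A in gClrBID on glucose (12568 FPKM). On cellulose it was cel7A-2, at 1046 FPKM in M12, 5541 in gClrBID and 30272 in the creA deletion.

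Transcripts of cdtC, bgl2 and xyn10A per clrB gave a different grouping. cdtC (PDE_00607) per clrB was 0.198 ± 0.0346 in M12 on glucose, 7.74 ± 0.403 in M12 on cellulose and 6.005 ± 0.298 in gClrBID on glucose, and 30.8 ± 5.32 and 27.2 ± 2.08 on cellulose in gClrBID and the creA deletion (SD, n = 3 each), where the last pair overlapped. bgl2 per clrB was 1.55 ± 0.0504 and 2.24 ± 0.147 in M12 on glucose and cellulose, and lay between 19.8 and 31.5 in all 9 libraries of the altered strains. xyn10A per clrB was 0.181 ± 0.0449 and 1.89 ± 0.0891 in M12 on glucose and cellulose, 8.25 ± 0.343 in gClrBID on glucose, and 121 ± 38.0 and 87.2 ± 0.810 on cellulose in gClrBID and the creA deletion (SD, n = 3 each).

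**Figure D4:**
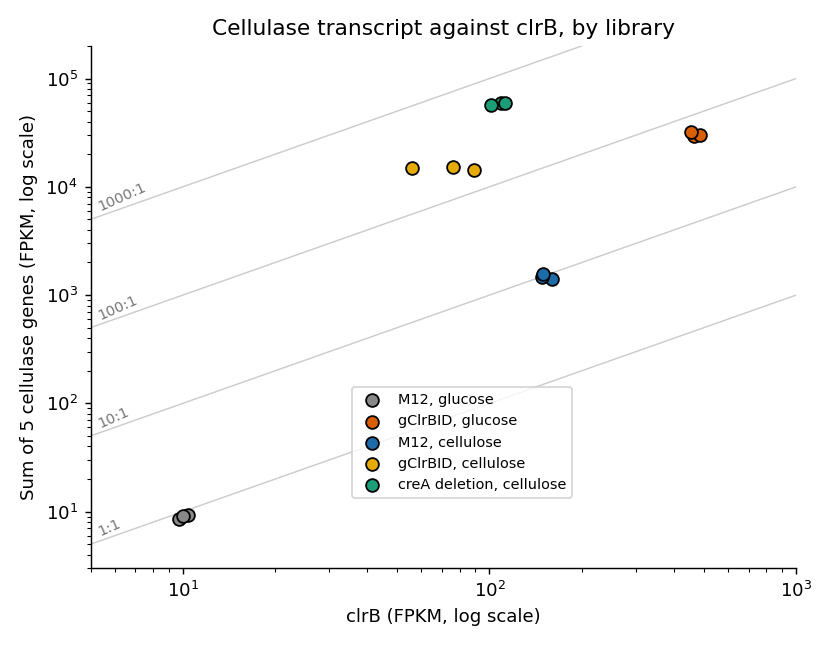
Sum of the FPKM of 5 cellulase genes against clrB FPKM for each of the 15 libraries, both on log axes, with grey lines at constant ratios of cellulase sum to clrB. The M12 libraries lie near the 1:1 line on glucose and near the 10:1 line on cellulose, and those of the altered strains between 61.7 and 561 to 1.

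The 3 gClrBID libraries on cellulose differed from each other in clrB by more than those of any other group. The highest was 1.58 times the lowest, against 1.07 to 1.11 times in the other 4 groups, and the coefficient of variation was 22.4% where counting error accounted for about 2.04% per library. On the log2 scale the SD was 0.33, and of the 6746 genes with a group mean of at least 10 FPKM 1.33% had a larger one. None of the 15 pathway genes had a larger coefficient of variation in these libraries, where they ran from 1.84% for xlnR to 22.2% for cel61A, with a median of 6.62%. Of the 15, 6 were lowest in replicate 1 and highest in replicate 3, as clrB was, and 3 ran the other way. amy13A, at 17.8, 23.0 and 25.4 FPKM in replicates 1, 2 and 3, had the order of clrB. cel61A had the reverse, at 169.6, 122 and 113.8 FPKM, and cel6A stood at 3491, 3512 and 3331 FPKM. The summed cellulases varied from 14437 to 15116 FPKM over the same libraries. Since the fit pools the spread of all groups, these libraries also widen the SE of clrB in comparisons they do not enter. A fit of M12 and the creA deletion on cellulose alone gave the same fold change with an adjusted p of 2.5e-05. In comparisons that do include gClrBID on cellulose, pooling narrows the SE of clrB, from 0.14 to 0.11 for both named next. With gClrBID and M12 on cellulose alone in the fit, the adjusted p was 0.00018. With gClrBID and the creA deletion on cellulose alone, it was 0.0049.

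**Figure D5:**
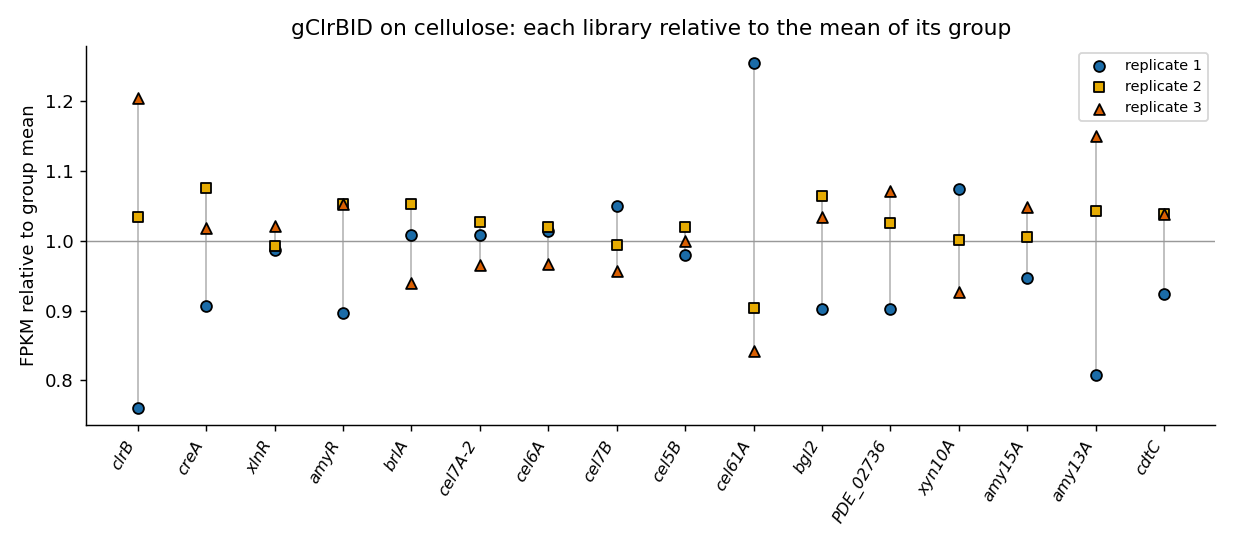
FPKM of clrB and 15 pathway genes in each gClrBID library on cellulose, relative to the mean of the 3, with markers for the replicates. clrB spans 0.761 to 1.21, the widest range of the genes shown, and cel6A 0.967 to 1.019.

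Likeness to clrB was measured as Pearson's r of log2(FPKM + 1) over the 15 libraries, which share 5 groups and are therefore a description without a p. Among 5060 other genes that reached a group mean of 10 FPKM and spanned at least 1 on the log2 scale, 20 had an r above 0.9 and 42 an r below -0.9. Outside the pathway genes the 3 most like were PDE_09609 (r = 0.97), PDE_04585 (0.97) and PDE_05158 (0.95), and the least like was PDE_00171 (-0.97). None of these 4 has a name in the sources used here.

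PDE_09609 stood at 150.3 ± 9.34 FPKM in M12 on glucose and 1901 ± 53.8 in gClrBID on glucose, and on cellulose at 1133 ± 28.2 in M12, 854 ± 29.9 in gClrBID and 742 ± 29.2 in the creA deletion (SD, n = 3 each). Its order of groups was that of clrB except that gClrBID and the creA deletion on cellulose changed places. PDE_00171 ran the other way, from 57.9 ± 10.5 FPKM in M12 on glucose to 1.59 ± 0.545 in gClrBID on glucose (SD, n = 3 each).

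Of the pathway genes bgl2 was the most like clrB (r = 0.88), followed by cdtC (0.86), cel5B (0.80), cel7A-2 (0.79), cel7B (0.79), cel6A (0.75) and xyn10A (0.74). Spearman's rho, which uses only the order of the libraries, was lower for each of them, at 0.68 for bgl2, 0.67 for cel5B, 0.53 for cdtC, 0.49 for cel6A, 0.48 for cel7A-2, 0.46 for cel7B and 0.19 for xyn10A. For PDE_09609 it was 0.88. The regulators had an r of 0.28 (xlnR), 0.14 (brlA), 0.13 (creA) and -0.27 (amyR), and cel61A one of 0.14. The order of the 5 group means of clrB was found in 8 other tested genes. In 0 of these were all 4 neighbouring pairs called by limma, and in 0 were all 4 at an unadjusted p under 0.05 or called with voom weights. These counts were not repeated with median-of-ratios scaling. There clrB itself lost the call between M12 and the creA deletion on cellulose (-0.18), so the counts do not make its order unique.

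The 10 locus tags numbered next to clrB, 5 below and 5 above, had fold changes on both sides of 0 in each of 3 strain comparisons. In gClrBID against M12 on glucose 2 of the 10 were called higher and 6 lower, near the 17.0% and 54.7% of all genes, with log2 fold changes from -2.35 to 6.27. On cellulose the same comparison gave 2 higher and 3 lower, from -0.81 to 1.27, beside 27.3% and 32.1% of all genes. The creA deletion against M12 gave 2 higher and 3 lower, from -1.24 to 0.46, beside 21.2% and 54.2%. With 10 tags these counts set the neighbours little apart from all genes. The highest neighbour value on glucose, 6.27, is set apart by its size. It exceeded that of clrB (5.41), as did 39 of the 8765 tested genes. Whether consecutive tags are neighbours on the chromosome was not checked, since the assembly with these tags is not used here.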

How the data were processed

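The authors deposited 1 table of FPKM values for 9976 genes, whose 15 columns carry the sample titles. Stranded mRNA libraries were used, per the labels' protocols. The authors' tools included the aligner HISAT2 2.0.0 and the counter featureCounts 1.5.0-p1, beside DESeq2 and CASAVA 1.8, per the submitters' processing notes, which state no order. Genome build, annotation and strand setting are not given in the sources used here, so reads of overlapping genes could not be assessed. None (0) of the 9976 identifiers matched the RefSeq table of strain HP7-1.

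Fold changes are limma 3.58.1 (R 4.3.3) contrasts on log2(FPKM + 1), with 1 mean per group, moderated variances with an intensity trend, genes of at least 1 FPKM in 3 libraries (8765), and Benjamini-Hochberg adjustment over all of them. Every adjusted p comes from this fit unless another is named. Whole fragments were recovered for all 9789 genes above 0 (tolerance 5e-05 FPKM), 100.0% of them, and served for voom weights. Intervals and counting errors cover counting error only. The model was tested on simulated data. Alternatives were the pseudocount, the filter, median-of-ratios and TPM scaling, voom weights, a replicate block, fits of the compared groups alone, and each library left out. clrB, the 15 genes beside it and the rules for likeness (3 genes most and 1 least like, with a group mean of at least 10 FPKM) and for 10 neighbouring tags were chosen with earlier results of these data known.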

Additional observations from a re-analysis of the deposited data

Results flagged for a closer look

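The strain effect of gClrBID against M12 differed between cellulose and glucose for clrB, by -6.48 on the log2 scale (limma interaction, adjusted p = 1.7e-14), and for 14 of the 15 pathway genes, where 68.1% of all tested genes were called in either direction. It was negative for creA (-2.10) and for the genes of the cellulases cel7A-2 (-8.74), cel6A (-6.70), cel7B (-5.68) and cel5B (-7.13), for bgl2 (-6.66), xyn10A (-5.56) and cdtC (-8.98). It was positive for amyR (3.60), amy15A (3.09), PDE_02736 (2.10), cel61A (1.84), amy13A (0.64) and brlA (0.51). The brlA value was past the threshold by little (adjusted p = 0.0446, and 0.0136 to 0.582 over all alternatives). That of cel61A was lost with a pseudocount of 0.1 (0.18) and was -0.88 with voom weights (adjusted p 7.5e-08 to 0.694 over all alternatives). xlnR was not called (-0.05).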

How the results depend on the processing

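The 11 clrB differences kept their direction in all 160 alternatives run and their call in 158. The exceptions were the creA deletion against M12 on cellulose, at -0.18 (adjusted p = 0.134) with median-of-ratios scaling and -0.19 (0.0968) with voom weights on that scaling. With 1 library left out that difference lay between -0.54 and -0.46, and gClrBID against the creA deletion between -0.71 and -0.38, the latter without gClrBID cellulose replicate 1. Median-of-ratios scaling moved the median of all genes by 0.26 in gClrBID against M12 on glucose, 0.28 in the creA deletion against M12 and -0.23 in gClrBID against the creA deletion. Genes called higher and lower in the last of these went from 4412 and 1737 to 2762 and 3130. In the creA deletion on cellulose against M12 on glucose they went from 2681 and 4790 to 3630 and 3568, and for the interaction from 4208 and 1764 to 2923 and 2613. PDE_09609 was the most like clrB in all 5 settings tried, while 1 of the 3 genes named remained among the 3 most like after median-of-ratios scaling and 2 after TPM. The gene least like clrB, PDE_00171, was replaced by another in 3 of the 5 settings. A replicate block left clrB at -1.06 (adjusted p = 2.7e-06) in gClrBID against M12 on cellulose and -0.50 (0.0011) in the creA deletion, and changed no clrB call. Same-numbered libraries correlated by -0.097 to 0.088 in 30 pairs of groups and 5 of 15 libraries correlated best with their own number. No pairing by number was seen, but with 3 libraries a group these values cannot exclude one. Counting error of clrB was largest in M12 on glucose, at about 5.03% per library.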
